A study of Danio rerio with 18 samples.

Results

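The effect of leaving the retinal pigment epithelium (RPE) on the dissected retina was measured in young mutant zebrafish, whose mutation lies in smarca4, the gene of the ATPase subunit of the SWI/SNF chromatin remodelling complex. The comparison sets 3 arrays of mutant retina with attached RPE against 3 arrays of mutant retina without it, which is 6 of the 18 arrays of the series. Its members are all 15502 probe sets of the zebrafish array that are not manufacturer controls, covering 8793 genes with a single symbol, and no measured value was used to choose them. All embryos were of strain AB at 52 hours post fertilization (hpf), and mutants were staged through their wild type siblings. The bare mutant retinas were pooled as 10, 9 and 10 tissues for replicates 1 to 3, and each RPE-attached mutant array held 6 tissues. Wild type retina with and without RPE, 3 arrays each with 10 tissues per pool, gave the same contrast without the mutation, and whole wild type and mutant embryos, 3 arrays each with 10 embryos per pool, completed the series. Pool size, group and any difference in handling of the RPE-attached mutant pools cannot be told apart. A pool mixes all the tissue that was dissected, so in these bulk samples fewer cells of a type and less RNA per cell cannot be told apart.

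The RPE is a single pigmented sheet behind the photoreceptors. It makes melanin, regenerates the retinal chromophore of the visual pigments, engulfs shed photoreceptor tips and exchanges nutrients with the choroidal vessels. Outside it lie choroid, sclera and the mesenchyme around the eye, with pigment cells that come from the neural crest, and a dissection that leaves the RPE in place can carry some of these cells along.

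Values are log2 signals from robust multiarray average (RMA) normalization, differences are RPE-attached minus bare retina on the log2 scale with the SE of the fit, and n = 3 arrays per group throughout. A gene was called at an adjusted p under 0.05 in limma, with Benjamini-Hochberg adjustment over all 15502 probe sets. No fold is printed where the lower group averaged under 5.15, a level that 30% of the group means do not reach. The 3 RPE-attached mutant arrays stood apart from the rest of the series in several measures. Their median SD per probe set was 0.175, against 0.111 to 0.123 in the other groups, and their correlations with one another ran from 0.987 to 0.988, against 0.993 to 0.996 elsewhere. The 18 hybridization control probe sets averaged 11.33 ± 0.12 (SD, n = 3) in them, against 9.97 ± 0.55 in bare mutant retina and 9.66 ± 0.09 in wild type RPE-attached retina. The 8 control probe sets at the 3′ ends of the spiked poly-A transcripts averaged 5.25 ± 0.17 in RPE-attached mutant retina, 6.34 ± 0.45 in bare mutant retina and 7.32 ± 0.05 in wild type RPE-attached retina. The gapdh signal at the 3′ end minus that at the 5′ end was 2.58 ± 0.03 in RPE-attached and 2.83 ± 0.13 in bare mutant retina. Same-numbered arrays of whole embryos and bare retina deviated from their group means together, with correlations of 0.29 to 0.60 in all pairs of groups. Between RPE-attached arrays and same-numbered arrays of the other groups the correlations ran from -0.20 to 0.16, so the RPE-attached arrays of both genotypes stood largely outside that shared structure. The part of these differences in the results below was not tested.

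The mutated gene itself, smarca4a, had log2 signals of 9.09, 8.69 and 8.89 in the bare pools and 9.36, 9.37 and 8.87 in the RPE-attached pools. These overlapped and the difference was not called (0.31 ± 0.16, adjusted p = 0.12), while the wild type group means were 11.15 in bare and 10.84 in RPE-attached retina, so both mutant groups lay below their wild type counterparts. A second, dimmer probe set of the gene was called higher with attached RPE in mutant (0.46 ± 0.16, adjusted p = 0.028).

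Attached RPE went with a large part of the array changing in mutant retina. Of 15502 probe sets, 3708 were higher (23.9%) and 2532 were lower (16.3%) in RPE-attached than in bare mutant retina, 6240 in all (40.3%). Counted by gene, 2141 of 8793 were higher (24.3%) and 1613 were lower (18.3%), with a median change of 0.09 over all genes. Higher calls made up 59.4% of all calls, but 50.9% after a further quantile normalization and 46.8% after subtracting each array's median, so the balance of directions depended on the scaling. Differences of at least 2-fold were fewer and leaned the other way, with 256 probe sets higher (1.65%) and 420 lower (2.71%). At the stricter threshold of an adjusted p under 0.001, 1088 were higher (7.02%) and 1171 lower (7.55%). The median change also moved with brightness, from 0.18 in the dimmest 20% of probe sets to -0.09 in the brightest 20%. In the dimmest 20%, 26.5% were higher and 2.48% lower, and in the brightest 20%, 19.4% were higher and 32.5% lower. In wild type the corresponding medians were 0.09 and -0.15. The shares over all genes that are given beside the lists below are not matched for brightness.

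RPE marker genes matched the label of the comparison. rpe65a, the isomerase that regenerates the chromophore, had log2 signals of 7.29, 7.12 and 7.81 in the bare pools and 10.01, 9.68 and 9.94 in the RPE-attached pools. The groups were well separated, a 5.55-fold difference (2.47 ± 0.18, adjusted p = 9.1e-09), and a dimmer probe set of the gene gave a 2.86-fold difference (1.52 ± 0.15, adjusted p = 4.2e-07). pmelb, which builds the fibrils on which melanin is laid down, stood at 6.09, 5.98 and 6.49 in the bare pools and 9.62, 9.36 and 9.44 in the RPE-attached pools, a 9.79-fold difference (3.29 ± 0.21, adjusted p = 2.3e-09). dct, the dopachrome tautomerase of melanin synthesis, read 7.46, 7.14 and 7.55 in the bare pools and 10.51, 10.25 and 10.52 in the RPE-attached pools, an 8.24-fold difference (3.04 ± 0.15, adjusted p = 1.3e-10). In all 3 genes every RPE-attached array lay above every bare array by more than 1 log2 unit. Of 10 RPE markers 6 were on the array, all 6 were higher, and their summed signal was 9.20 to 9.65 in the bare arrays and 11.86 to 12.12 in the RPE-attached arrays on the log2 scale. The bare mutant pools were not free of rpe65a signal: their mean of 7.41 lay above the 6.44 of bare wild type retina, a difference between groups that was not tested here.

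**Figure D1:**
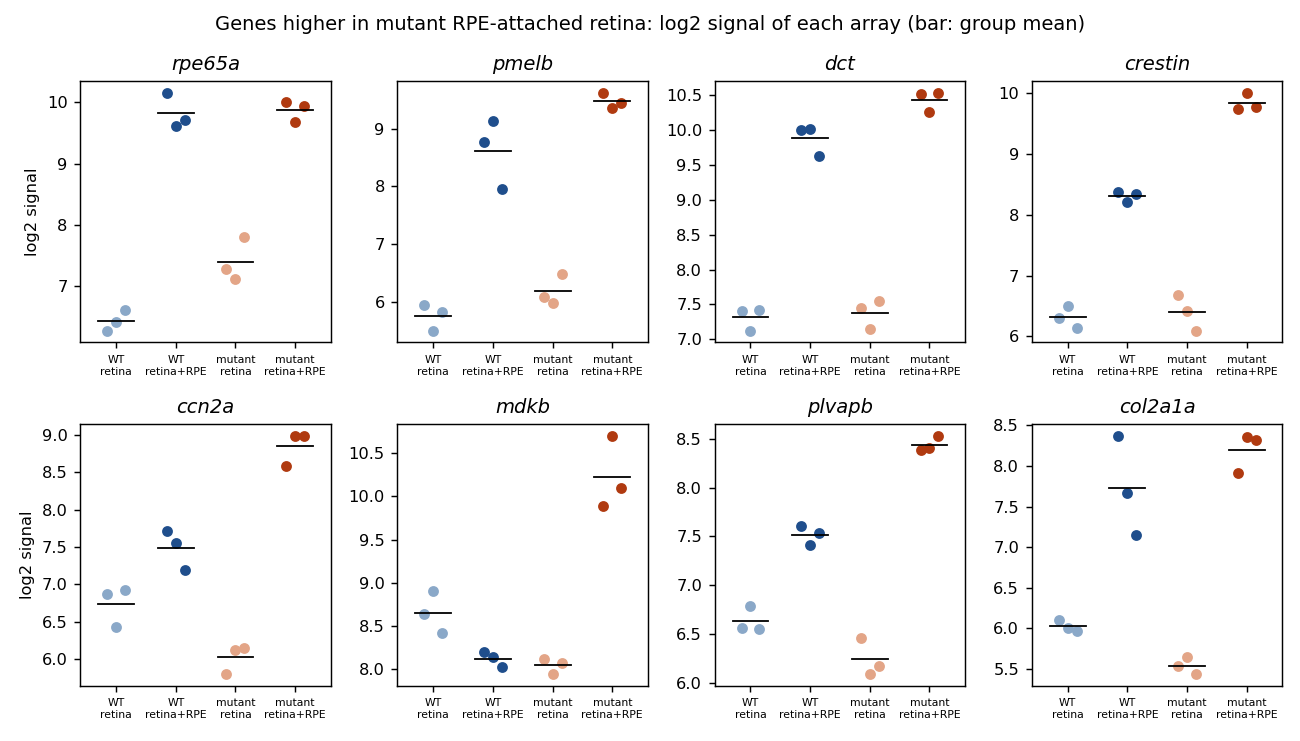
Log2 signal of each array (points) with the group mean (bar) for 8 genes in wild type and mutant retina, bare and RPE-attached, 3 arrays per group; each panel has its own vertical axis, which does not start at 0. In every panel all 3 mutant RPE-attached arrays lie above all 3 mutant bare arrays, and in mdkb the wild type groups run the other way.

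Beyond the markers, the RPE visual cycle and function list had 20 genes on the array, of which 10 rose and 1 fell. The share was 50.0% higher against 24.3% of all genes, with a median change of 0.31. The member that fell, cst3, changed by -2.57, which was larger in size than the largest rise of the list, 2.47 for rpe65a. rgrb, an opsin of the RPE that takes part in chromophore regeneration, rose 4.29-fold (2.1 ± 0.15, adjusted p = 6.8e-09), and stra6, the receptor that takes up retinol, rose 4.19-fold (2.07 ± 0.17, adjusted p = 4.9e-08). ctsd, the lysosomal protease that digests engulfed photoreceptor tips, had signals of 10.49, 10.28 and 10.52 in the bare pools and 11.02, 11.00 and 10.80 in the RPE-attached pools, a smaller difference of 0.51 (adjusted p = 0.00073). itgb5, an integrin subunit that binds these tips in mouse RPE, rose by 0.52 (adjusted p = 0.00088). aqp1a.1, a water channel found also in red cells and vessels, rose by 0.50 (adjusted p = 0.0067).

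All called melanin genes were higher. Of 12 genes for melanin synthesis and the melanosome, 5 rose (41.7% against 24.3% of all genes), none fell and 7 were not called. rab32a, a GTPase that delivers pigment enzymes to the melanosome, had signals of 5.84, 5.82 and 6.05 in the bare pools and 7.91, 8.30 and 7.64 in the RPE-attached pools and rose 4.14-fold (2.05 ± 0.16, adjusted p = 2.4e-08). tyr, the tyrosinase that begins melanin synthesis, stayed dim at 5.18, 4.97 and 5.12 in the bare pools and 5.78, 6.0 and 5.85 in the RPE-attached pools, which still did not overlap (difference 0.79, adjusted p = 2.9e-05). hps4, part of the complex that activates Rab32, rose by 0.64 (adjusted p = 0.00014).

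Transcription factors of the RPE and of eye pigment cells gave 7 of 24 higher (29.2%) and 6 lower (25.0%), not far from the 24.3% and 18.3% of all genes. mitfa, which drives the melanocyte programme, read 4.87, 4.77 and 5.11 in the bare pools and 6.09, 6.06 and 6.24 in the RPE-attached pools (difference 1.22, adjusted p = 1e-05). sox10, the neural crest factor upstream of it, rose 2.52-fold (1.34 ± 0.12, adjusted p = 9.2e-08), and bhlhe41, a repressor of the bHLH class tied to the circadian clock, rose by 1.21 (adjusted p = 1.9e-07). On the lower side were usf1, an E-box binding factor, with signals of 9.25, 8.98 and 9.39 in the bare pools and 8.0, 7.95 and 7.84 in the RPE-attached pools (difference -1.28, adjusted p = 8.5e-07), and the nuclear receptor nr2f1b (difference -1.29, adjusted p = 8.9e-07).

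The largest rise among the 8793 genes was that of crestin. crestin, a transcript of migrating neural crest and its pigment cell progeny in zebrafish, had signals of 6.67, 6.42 and 6.09 in the bare pools and 9.74, 10.01 and 9.78 in the RPE-attached pools, a 10.9-fold difference (3.45 ± 0.14, adjusted p = 4.3e-12). Of 28 neural crest and chromatophore genes 14 rose and 1 fell, a share of 50.0% higher against 24.3% of all genes, with a median of 0.31. slc2a15b, a sugar transporter family member known in medaka for pigment cell differentiation, rose 5.75-fold (2.52 ± 0.15, adjusted p = 6.4e-10) on its brightest probe set and 1.31-fold on another (0.39 ± 0.10, adjusted p = 0.0044). Among xanthophore genes, gch2, which starts the synthesis of pteridine pigment, read 4.72, 4.82 and 5.10 in the bare pools and 6.42, 6.95 and 6.05 in the RPE-attached pools (difference 1.60, adjusted p = 0.00047), and a second, dimmer probe set of the gene gave 0.07 (adjusted p = 0.75). bco1, which cleaves carotenoids, rose by 0.91 (adjusted p = 1.2e-05), and paics, a purine synthesis enzyme, by 0.80 (adjusted p = 0.0001). foxd3, an early neural crest factor, was not called, at 5.85, 5.74 and 5.40 in the bare pools and 5.88, 5.97 and 6.26 in the RPE-attached pools (adjusted p = 0.077). The summed signal of the 3 neural crest markers was 7.88 to 8.18 in bare and 10.29 to 10.43 in RPE-attached arrays. Only 1 of 3 iridophore markers was on the array, and its signal was under 5.15 in both groups.

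Vessel genes included further rises. plvapb, which forms the diaphragms of fenestrated endothelium, had signals of 6.46, 6.09 and 6.17 in the bare pools and 8.39, 8.40 and 8.53 in the RPE-attached pools, a 4.59-fold difference (2.2 ± 0.11, adjusted p = 8.9e-11). kdrl, a VEGF receptor of endothelium, rose 2.54-fold (1.34 ± 0.16, adjusted p = 2.8e-06). Over 21 endothelial genes 8 rose (38.1% against 24.3% of all genes) and 1 fell (4.76% against 18.3%). None of the 21 lay in the brightest 20% of probe sets, where 32.5% were lower. In the dimmest 20% of probe sets 2.48% were lower. tie1, a receptor kinase of vessels, differed by 0.61 (adjusted p = 9.4e-05), the apelin receptor gene aplnra by 0.75 (adjusted p = 0.00078) and the endothelial factor erg by 0.60 (adjusted p = 0.00034). The member that fell was lmo2, a cofactor of blood and vessel progenitors, at 6.5, 6.63 and 6.55 in the bare pools and 6.17, 5.87 and 5.91 in the RPE-attached pools (adjusted p = 0.00018).

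Blood genes depended on single pools. Among 25 erythrocyte genes 7 rose (28.0%, near the 24.3% of all genes) and none fell (18.3% of all genes fell). Of the 25, 3 lay in the brightest 20% of probe sets, where lower calls were most frequent. The count of rises ran from 3 to 11 when 1 mutant array at a time was left out. It was 3 without bare replicate 3, 4 without bare replicate 1 or RPE-attached replicate 3, and 11 without bare replicate 2. hbae3, an embryonic alpha globin, stood at 10.84, 12.09 and 10.80 in the bare pools and 11.66, 11.75 and 11.59 in the RPE-attached pools. Bare replicate 2 was the brightest of the 6 for this globin, the groups overlapped and the difference was not called (adjusted p = 0.15). hbbe2, an embryonic beta globin, was called at 0.69 (adjusted p = 0.014), but not without bare replicate 1 (adjusted p = 0.064) or bare replicate 3 (adjusted p = 0.097). For hbaa1, another alpha globin, the difference was 0.64 (adjusted p = 0.013) and was not called without RPE-attached replicate 3 (adjusted p = 0.087).

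Leukocyte genes gave 10 of 32 higher (31.25% against 24.3% of all genes) and none lower (18.3% of all genes), with a median of 0.24. Without bare replicate 3, 6 were higher. After a further quantile normalization 6 were higher and 2 lower. coro1a, an actin regulator of white cells, had signals of 4.89, 5.03 and 4.79 in the bare pools and 6.39, 6.22 and 6.16 in the RPE-attached pools (difference 1.35, adjusted p = 3.2e-07), with a dimmer probe set of the same gene at 0.15 (adjusted p = 0.48). spi1b, a master factor of myeloid cells, differed by 0.48 (adjusted p = 0.00087), and its other probe set by -0.02 (adjusted p = 0.88). lyz, the lysozyme of myeloid cells, rose 2.13-fold (1.09 ± 0.30, adjusted p = 0.0068), and the neutrophil enzyme gene mpx by 0.36 (adjusted p = 0.008). The mpx call was lost in the fit of the compared groups alone (adjusted p = 0.055) and without bare replicate 3 (adjusted p = 0.053).

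**Figure D2:**
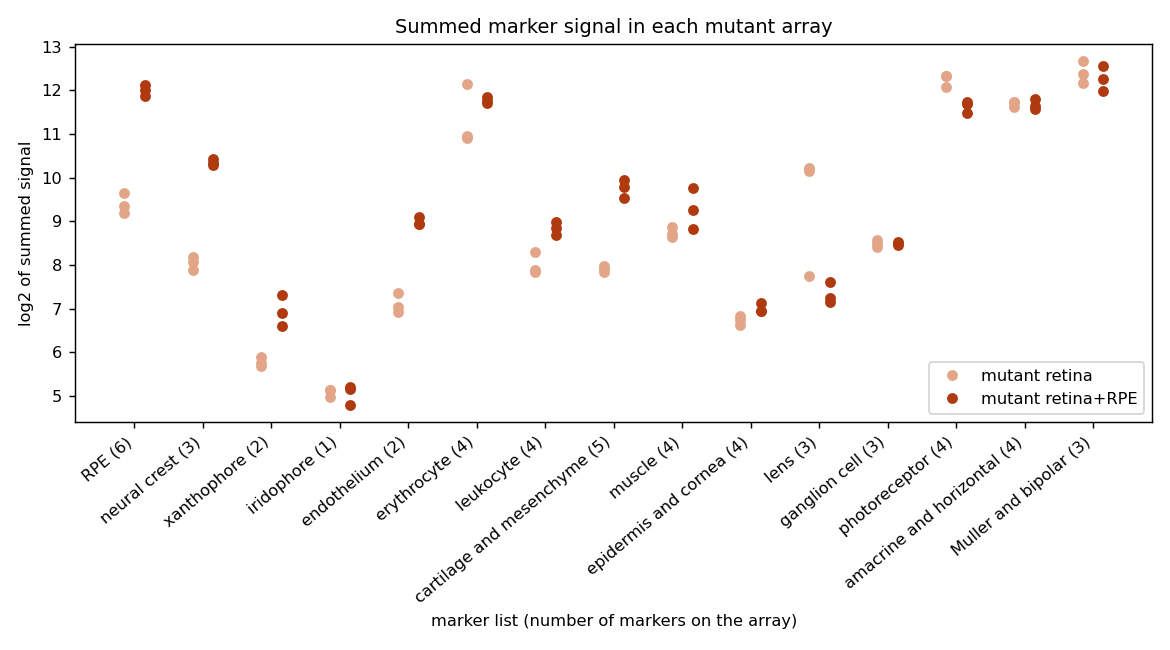
Log2 of the summed linear signal of each cell type's markers (horizontal axis, with the number on the array in brackets) in the 3 bare (light) and 3 RPE-attached (dark) mutant arrays. RPE, neural crest, xanthophore, endothelium, leukocyte, cartilage and epidermis are higher in every RPE-attached array, and photoreceptor and lens are lower in every one. A sum follows its brightest markers. Of the 4 photoreceptor markers 2 were called lower and 1 was under 5.15 in both groups. The longer photoreceptor gene list had 12 of 51 higher and 10 lower. Muscle spreads from 8.82 to 9.76 among the RPE-attached arrays, and lens from 7.75 to 10.22 among the bare arrays.

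Mesenchyme, cartilage and collagen had the largest share of higher genes among the 29 lists, 39 of 67 (58.2% against 24.3% of all genes) with 1 lower and a median of 0.46. col2a1a, the main collagen of cartilage, had signals of 5.54, 5.65 and 5.44 in the bare pools and 7.91, 8.35 and 8.32 in the RPE-attached pools, a 6.29-fold difference (2.65 ± 0.21, adjusted p = 1.9e-08). col1a1a, the collagen of fibrous connective tissue, rose 5.41-fold (2.43 ± 0.22, adjusted p = 1.4e-07), or 2.28-fold on its other probe set, and its partner chain col1a2 rose 1.64-fold (0.71 ± 0.13, adjusted p = 0.00025). These collagens were far brighter in whole mutant embryos, at 10.43 for col2a1a and 12.69 for col1a1a. foxc1a, a factor of the mesenchyme around the eye, read 5.95, 5.62 and 5.74 in the bare pools and 6.93, 7.35 and 7.28 in the RPE-attached pools (difference 1.41, adjusted p = 7.9e-06). tgfbi, a matrix protein induced by TGF-beta, rose 3.7-fold, the matrix glycoprotein gene sparc 2.87-fold and col9a2, a collagen of cartilage and vitreous, 2.85-fold, with adjusted p-values of 4.2e-07, 1.5e-07 and 3.6e-07. serpinh1b, the chaperone that folds collagen, stood at 6.80, 7.97 and 6.86 in the bare pools and 8.68, 9.14 and 8.92 in the RPE-attached pools, with bare replicate 2 the highest of its group (difference 1.70, adjusted p = 7.6e-06).

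The rise of muscle genes varied with the pool. Of 55 genes 20 rose (36.4% against 24.3% of all genes) and none fell, with a median of 0.33. The count of rises ran from 8 to 23 when 1 mutant array was left out. The lowest count came without bare replicate 1, and it was 13 without bare replicate 3. It was 10 in the fit of the compared groups alone and 11 after a further quantile normalization. actc1b, an actin of muscle, had signals of 7.92, 8.14 and 7.96 in the bare pools and 8.12, 8.43 and 9.20 in the RPE-attached pools, so RPE-attached replicate 3 was the brightest and replicate 1 lay inside the bare range. Its difference of 0.58 (adjusted p = 0.016) fell to 0.27 without RPE-attached replicate 3 (adjusted p = 0.11), and other probe sets of the gene gave 0.65, 0.35 and -0.07 (adjusted p = 0.0065, 0.047 and 0.55). ckma, the muscle creatine kinase, showed the same overlap at 6.24, 6.64 and 6.38 in the bare pools and 6.51, 7.47 and 7.53 in the RPE-attached pools (adjusted p = 0.0059). mybpc2b, a myosin-binding protein of fast muscle, read 5.15, 5.11 and 4.97 in the bare pools and 6.64, 6.37 and 7.36 in the RPE-attached pools and did not overlap (adjusted p = 1.9e-06). tpm4a, a tropomyosin found also outside skeletal muscle, rose 3.95-fold (1.98 ± 0.19, adjusted p = 1.9e-07). Summed signals of the 4 muscle markers were 8.65 to 8.87 in bare arrays and 8.82, 9.25 and 9.76 in RPE-attached arrays, against at least 15.60 in whole mutant embryos.

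Keratins of simple epithelia rose while the marker of skin keratinocytes did not pass the test. krt8 had signals of 5.52, 5.43 and 5.51 in the bare pools and 7.25, 8.05 and 7.88 in the RPE-attached pools, a 4.74-fold difference (2.24 ± 0.24, adjusted p = 1e-06), and its pairing partners krt18a.1 and krt18b differed by 1.60 and 1.56 (adjusted p = 2.1e-07 and 5.3e-07). krt4, a keratin of the skin, stood at 5.48, 5.26 and 5.06 in the bare pools and 5.65, 5.45 and 5.92 in the RPE-attached pools (adjusted p = 0.058), well below its level in whole mutant embryos. Over the epidermis and cornea list 23 of 64 rose (35.9% against 24.3% of all genes) and 2 fell (3.1% against 18.3%). After a further quantile normalization 14 of the 64 rose, in a setting where 2828 of 15502 probe sets were higher. dsc2l, a cadherin of desmosomes, differed by 1.38 on its brightest probe set (adjusted p = 1.7e-06) and by 0.28 on another, which was not called (adjusted p = 0.086). None of the 4 epidermal markers on the array was called, and their summed signal was 6.63 to 6.83 in bare and 6.95 to 7.12 in RPE-attached arrays.

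**Figure D3:**
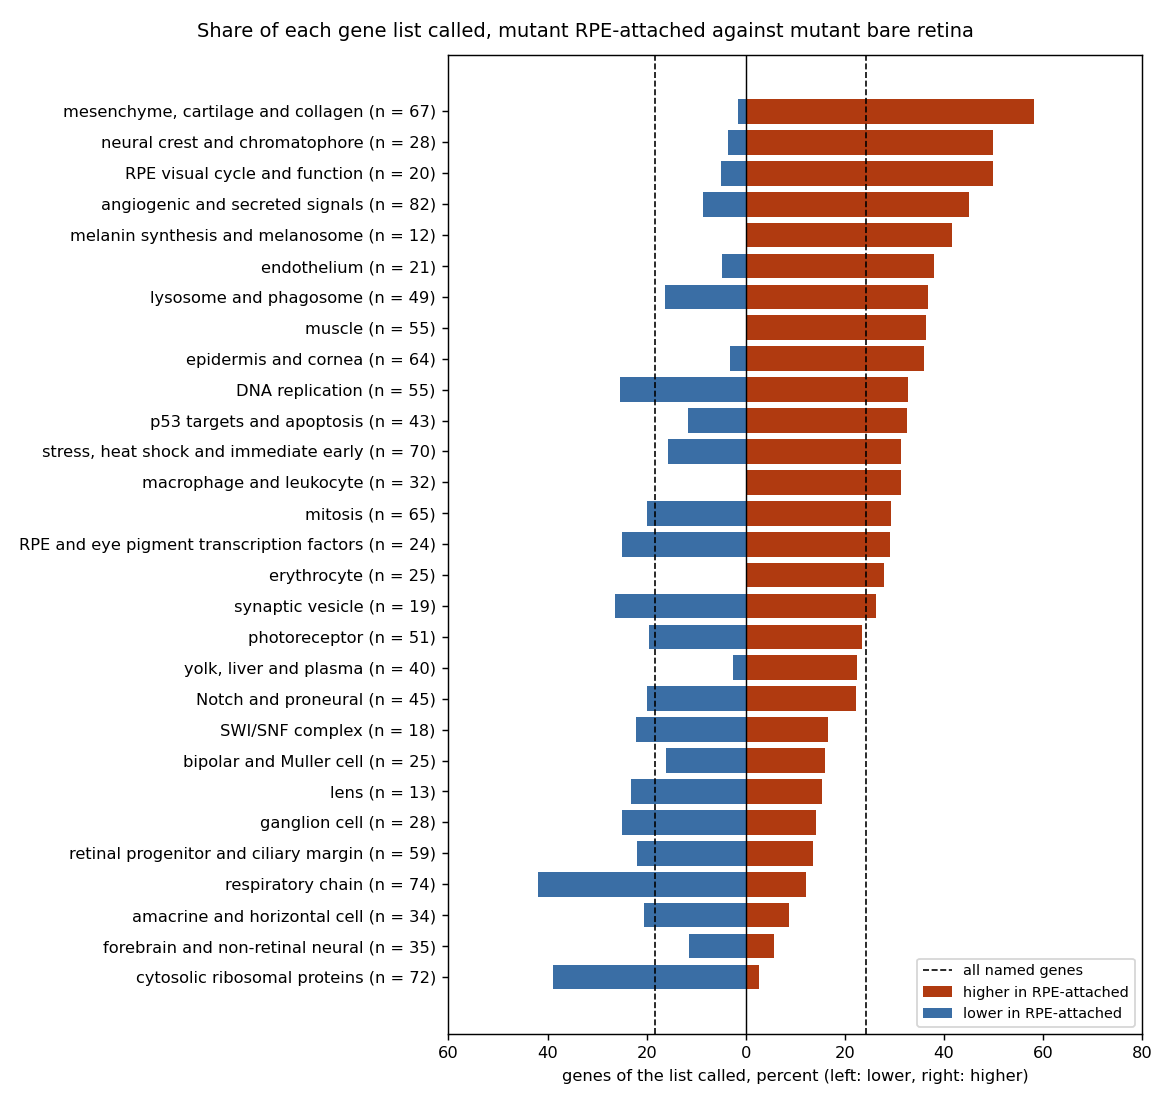
Percent of each gene list called higher (right) or lower (left) in mutant RPE-attached against bare retina, with the number of genes on the array; dashed lines give the shares over all 8793 genes, 24.3% higher and 18.3% lower. Mesenchyme, neural crest and RPE function lie farthest to the right, and respiratory chain and ribosomal protein genes farthest to the left.

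Genes of secreted signals and receptors were among the largest differences. The list of angiogenic and secreted signals gave 37 of 82 higher (45.1% against 24.3% of all genes) and 7 lower (8.54% against 18.3%). The count of rises ran from 26 to 41 when 1 mutant array was left out. The largest rise of the list was that of mdkb, and ccn2a, notch2 and defbl1, given here as well, are not members of it. ccn2a, a matrix-associated growth regulator downstream of TGF-beta and YAP, had signals of 5.81, 6.12 and 6.15 in the bare pools and 8.59, 8.98 and 8.98 in the RPE-attached pools, a 7.08-fold difference (2.82 ± 0.17, adjusted p = 8.6e-10). mdkb, a midkine growth factor, read 8.11, 7.94 and 8.06 in the bare pools and 9.89, 10.70 and 10.10 in the RPE-attached pools, a 4.57-fold difference (2.19 ± 0.17, adjusted p = 1.5e-08). ccn1, a relative of ccn2a, rose 2.95-fold (1.56 ± 0.16, adjusted p = 6.3e-07) on its brightest probe set, while its others gave -0.15 and -0.10 (adjusted p = 0.38 and 0.51). The Hedgehog ligand genes shha and shhb differed by 0.90 and 1.0 (adjusted p = 2.6e-05 and 6.2e-06), the Wnt ligand gene wnt2 by 1.07 (adjusted p = 9.6e-07) and igfbp3, a binder of insulin-like growth factors, by 0.91 (adjusted p = 4.4e-06). notch2, a receptor of the Notch pathway, read 5.99, 5.64 and 5.95 in the bare pools and 7.91, 8.19 and 8.25 in the RPE-attached pools on its brightest probe set (difference 2.26, adjusted p = 1.4e-08). Its other probe sets were dimmer and gave 0.80 (adjusted p = 0.00023) and -0.25 (adjusted p = 0.077), so the probe sets of notch2 disagreed. defbl1, a beta-defensin-like antimicrobial peptide, rose 5.86-fold, from 5.25, 5.19 and 5.25 to 7.98, 7.78 and 7.58 (adjusted p = 6.8e-09).

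Stress genes gave 22 of 70 higher (31.4% against 24.3% of all genes) and 11 lower, or 17 and 15 after subtracting each array's median, and p53 target and apoptosis genes gave 14 of 43 higher (32.6%) and 5 lower. socs3b, an inhibitor of cytokine signalling, had signals of 6.52, 6.52 and 6.59 in the bare pools and 8.06, 8.32 and 7.44 in the RPE-attached pools (difference 1.40, adjusted p = 1.9e-06). hsp90aa1.2, a cytosolic chaperone, rose 2.06-fold (1.04 ± 0.13, adjusted p = 6.2e-06), and sesn3, a sestrin, rose 1.96-fold (0.97 ± 0.12, adjusted p = 5.1e-06). xbp1, a factor of the unfolded protein response, moved the other way, at 9.86, 10.31 and 10.10 in the bare pools and 9.12, 9.22 and 8.87 in the RPE-attached pools (difference -1.02, adjusted p = 1.2e-05).

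Lysosome and phagosome genes, which the RPE uses heavily, gave 18 of 49 higher (36.7% against 24.3% of all genes) and 8 lower (16.3% against 18.3%). In wild type the same list gave 8 higher (16.3% against 15.4% of all genes) and 11 lower (22.4% against 15.5%). The genes named next are all from the higher side in mutant. glb1l, related to beta-galactosidase, had signals of 6.31, 6.33 and 6.22 in the bare pools and 8.09, 7.78 and 7.92 in the RPE-attached pools (difference 1.65, adjusted p = 3.1e-09). ctsba, a cathepsin B protease, rose from a mean of 8.73 to 10.15 (difference 1.42, adjusted p = 5.7e-06), and the fucosidase gene fuca1.1 rose 2.38-fold (1.25 ± 0.15, adjusted p = 2.5e-06). All 3 were separated between the groups in every array.

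Turning to genes that were lower, the largest differences included genes of chromatin, transcription and mitochondria, a protease inhibitor and lens crystallins. hmgn1b, a nucleosome-binding protein, had signals of 7.97, 9.10 and 9.01 in the bare pools and 6.35, 5.74 and 5.90 in the RPE-attached pools, a 6.47-fold difference (-2.69 ± 0.24, adjusted p = 1.3e-07). cs, the citrate synthase of mitochondria, stood at 10.05, 9.77 and 9.99 in the bare pools and 8.34, 6.91 and 7.21 in the RPE-attached pools, with RPE-attached replicate 1 above the other two (difference -2.45, adjusted p = 2.1e-07). cst3, the cysteine protease inhibitor cystatin C, read 8.83, 8.49 and 8.86 in the bare pools and 6.21, 6.40 and 5.87 in the RPE-attached pools, a 5.95-fold difference (-2.57 ± 0.15, adjusted p = 6.4e-10). This gene is the member of the RPE visual cycle and function list that fell. elof1, a transcription elongation factor, differed by -2.47, and its other probe set by -0.81 (adjusted p = 2.3e-09 and 4.4e-05). The myristoyltransferase gene nmt1a, the iron-sulfur cluster gene nfu1 and supt3h, of the SAGA coactivator, differed by -2.15, -2.33 and -2.02 (adjusted p = 8.3e-06, 1.7e-10 and 3.1e-09). snapin, a SNARE-associated protein of vesicle and melanosome sorting, was dim in RPE-attached arrays at 3.86, 4.2 and 4.23, against 6.21, 6.04 and 6.13 in bare arrays. For rad23b, a DNA repair factor, and eps8l3b, of the Eps8 family, the brightest probe set gave -2.14 and -2.16 (adjusted p = 2.7e-06 and 3.6e-09), while dimmer ones gave 0.12 and 0.30 (adjusted p = 0.33 and 0.058).

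Bright gene families of translation and energy metabolism leaned lower. Of 72 cytosolic ribosomal protein genes 28 fell and 2 rose, 38.9% lower against 18.3% of all genes, with a median of -0.24. All 72 lay in the brightest 20% of probe sets, where 32.5% were lower and the median was -0.09. rps15a had signals of 12.96, 13.05 and 12.94 in the bare pools and 12.25, 11.96 and 11.97 in the RPE-attached pools (difference -0.92, adjusted p = 3e-07), and rps27.1 and rpl29 differed by -1.07 and -1.01 (adjusted p = 3.1e-07 and 2.9e-05). Of 74 respiratory chain genes 31 fell (41.9%) and 9 rose (12.2%), and 66 of the 74 lay in the brightest 20%. Without bare replicate 3, 20 of them fell. ndufab1a, of complex I, read 9.92, 9.82 and 9.80 in the bare pools and 8.65, 8.38 and 8.62 in the RPE-attached pools (difference -1.30, adjusted p = 1.4e-07), and uqcrh, of complex III, differed by -1.23 (adjusted p = 9.5e-06). ndufa8, also of complex I, rose 2.13-fold (1.09 ± 0.13, adjusted p = 2e-06). The hybridization controls were brighter in the RPE-attached arrays by more than 1 log2 unit, as given above, and their part in these families was not tested.

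**Figure D4:**
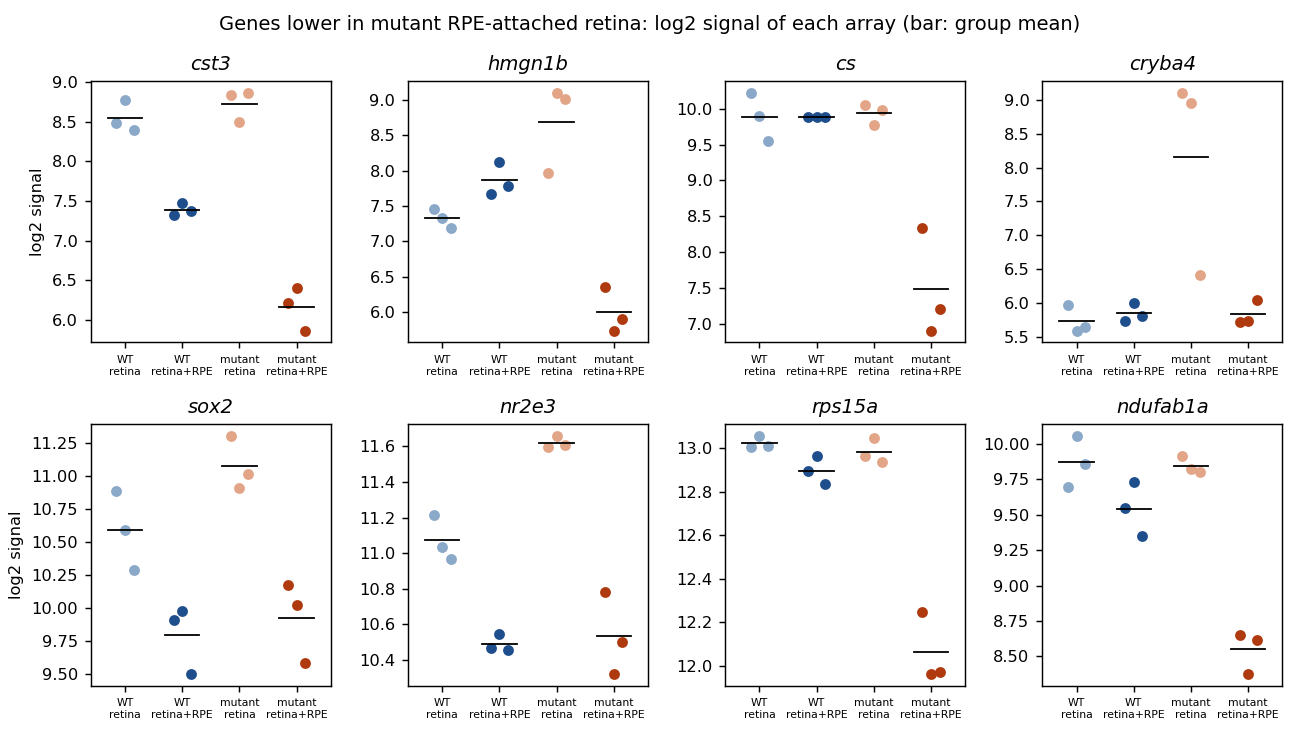
Log2 signal of each array (points) with the group mean (bar) for 8 genes in wild type and mutant retina, bare and RPE-attached, 3 arrays per group; each panel has its own vertical axis, which does not start at 0. All mutant RPE-attached arrays lie below all mutant bare arrays; for cryba4 bare replicates 1 and 2 stand at 9.10 and 8.95 and replicate 3 at 6.41.

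Lens crystallins separated the bare pools from one another. cryba4, a structural crystallin, had signals of 9.10, 8.95 and 6.41 in the bare pools and 5.73, 5.73 and 6.05 in the RPE-attached pools; crybb1 read 9.09, 9.38 and 6.71 in the bare pools and 5.95, 5.91 and 6.59 in the RPE-attached pools, and crygmxl2 8.22, 8.53 and 6.07 in the bare pools and 5.65, 5.33 and 5.80 in the RPE-attached pools. In all 3 genes bare replicates 1 and 2 were high, bare replicate 3 was near the RPE-attached arrays, and the differences were called (-2.32, -2.25 and -2.01, adjusted p = 0.00034, 0.0023 and 0.0003). With bare replicates 1 and 2 left out, a setting chosen after seeing the data that leaves 1 bare array, the differences were -0.57, -0.57 and -0.48. Leaving out the arrays with the high signals had to shrink them, so these values are a description and not a test. In whole mutant embryos cryba4 averaged 11.08. Over the 13 lens genes on the array 2 rose (15.4% against 24.3% of all genes) and 3 fell (23.1% against 18.3%).

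Photoreceptor genes moved in both directions, 12 of 51 higher (23.5%) and 10 lower (19.6%), close to the shares over all genes, with 6 higher without bare replicate 1. The median change of the list was 0.09, and its members ranged from -1.32 to 1.11. The genes named next are all from the lower side. nr2e3, a nuclear receptor of rods, had signals of 11.60, 11.66 and 11.61 in the bare pools and 10.78, 10.32 and 10.50 in the RPE-attached pools (difference -1.08, adjusted p = 4.3e-07), and crx, the factor that turns on photoreceptor genes, read 12.23, 11.97 and 12.22 in the bare pools and 11.55, 11.63 and 11.37 in the RPE-attached pools (difference -0.62, adjusted p = 0.0033). gngt2a, the cone transducin gamma subunit, and gnb1b, a G protein beta subunit, differed by -1.25 and -1.32 (adjusted p = 3.2e-05 and 9.7e-08). rcvrn2, a recoverin, differed by -0.83 on its brightest probe set (adjusted p = 0.00071) and by -0.04 on another (adjusted p = 0.82).

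Lists of inner retinal cells were mixed. Ganglion cell genes gave 4 of 28 higher (14.3%) and 7 lower (25.0%), and amacrine and horizontal cell genes 3 of 34 higher (8.82%) and 7 lower (20.6%), against 24.3% and 18.3% of all genes. The ganglion cell list gave 5 in each direction without bare replicate 2 and 4 in each without RPE-attached replicate 3, and 5 amacrine and horizontal cell genes were higher without RPE-attached replicate 1. Changes ranged from -0.83 to 0.72 in the ganglion cell list and from -1.09 to 0.60 in the amacrine and horizontal cell list. The called genes named next from these lists are all from the lower side. atoh7, which commits progenitors to the ganglion cell fate, had signals of 10.04, 9.78 and 10.12 in the bare pools and 9.01, 8.94 and 9.48 in the RPE-attached pools (difference -0.83, adjusted p = 0.00014). klf7b, a Krüppel-like factor of differentiating neurons, differed by -0.74 (adjusted p = 0.00016). inab, an intermediate filament of ganglion cells, overlapped at 6.33, 6.83 and 6.53 in the bare pools and 6.49, 6.0 and 6.51 in the RPE-attached pools and was not called (adjusted p = 0.25). slc32a1, which loads GABA and glycine into vesicles, read 6.91, 6.99 and 6.91 in the bare pools and 6.5, 6.11 and 6.08 in the RPE-attached pools (adjusted p = 0.00015), while bare wild type retina averaged 9.60. Bipolar and Müller cell genes gave 4 of 25 in each direction (16.0%), with 2 lower without bare replicate 3 or RPE-attached replicate 2. rlbp1a, the retinal-binding protein of Müller glia, rose 1.81-fold (0.86 ± 0.10, adjusted p = 2.5e-06), and glula, glutamine synthetase, differed by -1.02 (adjusted p = 3.4e-05). Synaptic vesicle genes gave 5 of 19 in each direction (26.3%), but 2 to 4 higher and 1 to 5 lower when 1 mutant array was left out. The lowest counts, 2 higher and 1 lower, came without bare replicate 1, and 1 was lower without RPE-attached replicate 3.

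Progenitor genes had 8 of 59 higher (13.6%), 5 without bare replicate 3, and 13 lower (22.0%), against 24.3% and 18.3% of all genes. sox2, which maintains neural progenitors, had signals of 11.31, 10.91 and 11.02 in the bare pools and 10.17, 10.02 and 9.58 in the RPE-attached pools on its brightest probe set (difference -1.15, adjusted p = 2.3e-05), and the others gave -0.19 and -0.03 (adjusted p = 0.20 and 0.93). mycn, a growth-promoting factor of progenitors, differed by -1.47 (adjusted p = 2.2e-07), with another probe set at 0.31 (adjusted p = 0.20). her4.2, a target of Notch signalling, read 9.52, 9.76 and 9.29 in the bare pools and 7.42, 7.12 and 8.06 in the RPE-attached pools, a 3.97-fold difference (-1.99 ± 0.24, adjusted p = 3e-06). The broader Notch and proneural list gave 10 of 45 higher (22.2%) and 9 lower, not far from the 24.3% and 18.3% of all genes. sox4a, of neuronal precursors, differed by -0.65 (adjusted p = 0.0003). For its relative sox11b the brightest probe set gave 0.71 (adjusted p = 0.00017) and others gave -0.99 and 0.36 (adjusted p = 0.0022 and 0.25), so no direction is given for that gene.

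Cell cycle lists went both ways. DNA replication genes gave 18 of 55 higher (32.7%) and 14 lower (25.5%), and mitosis genes 19 of 65 higher (29.2%) and 13 lower (20%). The shares over all genes were 24.3% and 18.3%. orc6, of the origin recognition complex, had signals of 9.0, 8.91 and 8.91 in the bare pools and 8.16, 7.89 and 7.83 in the RPE-attached pools (difference -0.98, adjusted p = 2.7e-06). dnmt1, the maintenance DNA methyltransferase, read 10.01, 10.02 and 10.14 in the bare pools and 10.81, 10.78 and 11.17 in the RPE-attached pools (difference 0.86, adjusted p = 1.6e-05), and aurka, a mitotic kinase, rose 1.87-fold (0.90 ± 0.13, adjusted p = 2.9e-05). kif4, a chromosome-associated kinesin, gave -1.22 on its brightest probe set (adjusted p = 1e-05) and 0.39 on a dim one (adjusted p = 0.016), so its probe sets disagreed. Of 18 SWI/SNF subunit genes 3 rose (16.7% against 24.3% of all genes) and 4 fell (22.2% against 18.3%). phf10, a subunit of the PBAF form of the complex, differed by 0.43 (adjusted p = 0.0019). It is from the higher side of the list, whose members ranged from -0.77 to 0.44. Yolk, liver and plasma genes gave 9 of 40 higher (22.5% against 24.3% of all genes) and 1 lower, with 2 higher without bare replicate 1 or 3. Forebrain and other neural genes gave 2 of 35 higher (5.71%) and 4 lower (11.4%), with 6 higher without RPE-attached replicate 1 and 4 without replicate 2 or 3.

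The same contrast in wild type retina, which shares no arrays with the mutant one, called 1351 genes higher (15.4%) and 1360 lower (15.5%). In probe sets it called 2361 higher (15.2%) and 2172 lower (14.0%), 29.2% in all. Of these 489 (3.15%) and 639 (4.12%) had an adjusted p under 0.001, and 94 (0.606%) and 114 (0.735%) were at least 2-fold. The larger number of calls in mutant depended on the spread pooled over all groups. In the fit of the compared groups alone 5322 probe sets were called in wild type and 4641 in mutant. Across the 8793 genes the 2 contrasts had a Pearson r of 0.46, given as a description over genes measured on the same arrays. Of the genes higher in the mutant contrast 556 were also higher in wild type, 26.0% of the mutant list and 41.2% of the wild type list. For genes that were lower, 659 were shared, 40.9% and 48.5%. The difference between the contrasts was tested directly, as the mutant contrast minus the wild type contrast. That test called 1101 genes above 0 (12.5%) and 821 below (9.34%). Among probe sets 1793 were above (11.6%) and 1335 below (8.61%), 20.2% in all, with 235 (1.52%) and 189 (1.22%) under 0.001 and 294 (1.9%) and 251 (1.62%) of at least 2-fold. By gene, 123 rose in mutant and fell in wild type with a called difference, while 66 did the reverse.

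**Figure D5:**
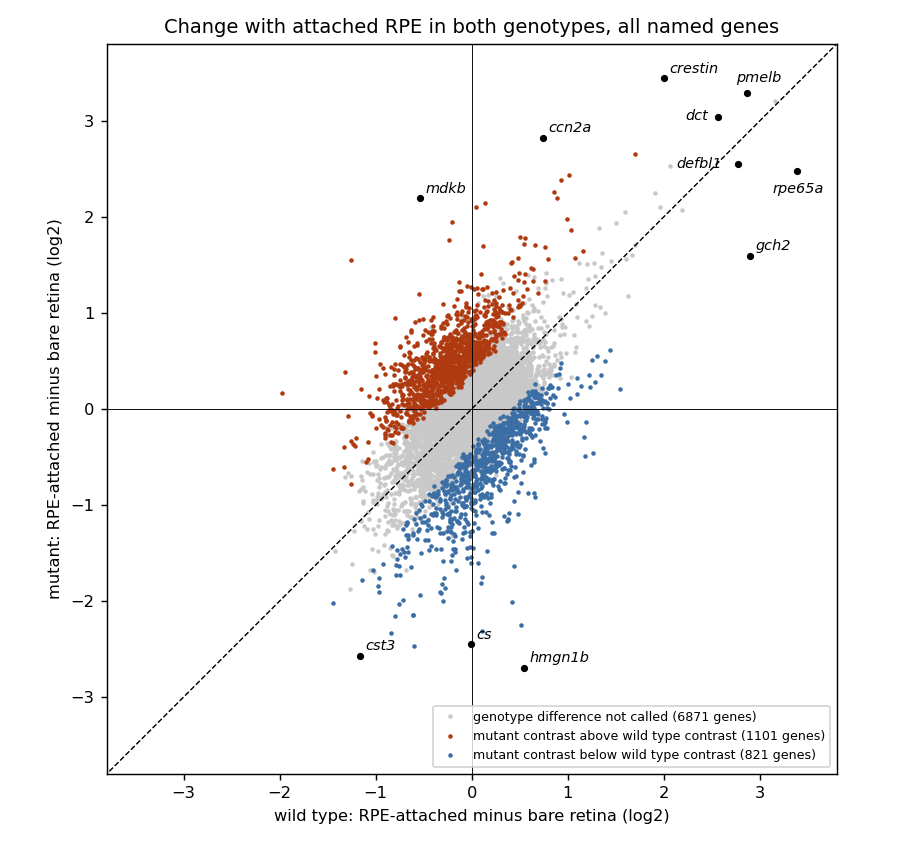
Change with attached RPE in mutant (vertical) against wild type (horizontal), both log2, for 8793 genes; red and blue mark genes whose genotype difference was called above (1101) or below (821) 0, black points are the labelled genes, and the dashed line marks equal change. crestin, ccn2a and mdkb lie above the line, and rpe65a, gch2, cs and hmgn1b below it.

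Several core RPE and melanin genes rose in both genotypes with no called difference between them. The wild type change was 2.86 for pmelb, 2.56 for dct, 1.96 for rgrb and 2.19 for stra6, and the genotype differences were 0.43 ± 0.30, adjusted p = 0.34 for pmelb and 0.48 ± 0.22, adjusted p = 0.12 for dct. For rgrb the genotype difference was 0.14 ± 0.21, adjusted p = 0.69, and for stra6 it was -0.12 ± 0.25, adjusted p = 0.77; these tests do not show that the genotypes were alike. For rpe65a the 2 probe sets disagreed on the genotype. On the brightest it had wild type signals of 6.28, 6.42 and 6.62 in bare and 10.16, 9.62 and 9.71 in RPE-attached retina. The RPE-attached means were 9.88 in mutant and 9.83 in wild type, the bare mutant mean was the higher of the bare ones, and the mutant contrast was smaller (-0.92 ± 0.26, adjusted p = 0.016). On the dimmer probe set the change was 1.52 in mutant and 1.56 in wild type, and the genotype difference was not called (-0.05 ± 0.22, adjusted p = 0.90). In the neural crest and chromatophore list 2 of 28 genotype differences were above 0 (7.14% against 12.5% of all genes) and 4 below (14.3% against 9.34%). crestin changed more in mutant (1.44 ± 0.19, adjusted p = 7.2e-05), with wild type RPE-attached signals of 8.37, 8.22 and 8.34, and gch2 changed less (-1.30 ± 0.44, adjusted p = 0.042), with wild type RPE-attached signals of 7.45, 8.25 and 7.46. The gch2 difference was not called under 11 of the alternatives and was -0.03 on its other probe set (adjusted p = 0.94), and that of rpe65a on its brightest probe set was not called without wild type RPE-attached replicate 1 (adjusted p = 0.051).

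Vessel and matrix lists held genotype differences on either side of 0. Over 21 endothelial genes 4 were above 0 (19.0% against 12.5% of all genes) and 3 below (14.3% against 9.34%), with a median of 0.02. In wild type 11 members rose (52.4% against 15.4% of all genes). plvapb and kdrl changed more in mutant (1.31 ± 0.15, adjusted p = 1.8e-05 and 0.86 ± 0.23, adjusted p = 0.012), as did col1a1a (1.43 ± 0.32, adjusted p = 0.0038) and col2a1a (0.96 ± 0.29, adjusted p = 0.027), the last of which was not called under 8 alternatives. The other col1a1a probe set gave 0.62 and was not called (adjusted p = 0.093). Over the mesenchyme, cartilage and collagen list 10 of 67 genotype differences were above 0 (14.9%, near the 12.5% of all genes) and 2 below (2.99% against 9.34%). The angiogenic and secreted signals list had 7 of 82 genotype differences above 0 (8.54% against 12.5% of all genes) and 5 below (6.1% against 9.34%), with a median of 0.02. Among single signal genes, ccn2a had wild type signals of 6.88, 6.43 and 6.92 in bare and 7.72, 7.55 and 7.19 in RPE-attached retina. Its wild type change was 0.74 and the genotype difference 2.08 ± 0.24, adjusted p = 1.8e-05. mdkb fell in wild type, from 8.64, 8.90 and 8.41 to 8.19, 8.13 and 8.02 (-0.54 ± 0.17, adjusted p = 0.021), and the genotype difference was 2.73 ± 0.24, adjusted p = 1.4e-06. Lysosomal genes gave 10 of 49 genotype differences above 0 (20.4%) and 3 below, with 0.88 ± 0.15, adjusted p = 0.00049 for ctsd, which fell in wild type (-0.37 ± 0.10, adjusted p = 0.011).

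The largest genotype differences above 0 included genes that rose in mutant and fell or were not called in wild type. bhmt, an enzyme of methionine metabolism that is abundant in liver, had mutant signals of 6.10, 6.59 and 6.29 in the bare pools and 8.16, 8.68 and 8.46 in the RPE-attached pools, and both wild type groups were near the RPE-attached mutant level, at 8.35 and 8.39. A dimmer bhmt probe set did not show this: it averaged 5.90 and 6.38 in wild type and 5.95 and 6.75 in mutant, with a genotype difference of 0.32 that was not called (adjusted p = 0.35). scinla, an actin-severing protein of the gelsolin family, was dim in wild type at 4.63 and 4.76 and read 5.17, 5.19 and 4.96 in the bare pools and 7.40, 7.17 and 7.20 in the RPE-attached pools in mutant. p3h4, a partner of collagen-modifying enzymes, was 6.70, 6.81 and 6.87 in the bare pools and 8.55, 8.56 and 8.56 in the RPE-attached pools in mutant, with a wild type change of -0.23 ± 0.11, adjusted p = 0.13.

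Below 0 stood many of the genes that were lowest in the mutant contrast. For hmgn1b the wild type arrays read 7.45, 7.33 and 7.18 in bare and 7.67, 8.13 and 7.79 in RPE-attached retina, with no call (0.54 ± 0.24, adjusted p = 0.1), and the genotype difference was -3.23 ± 0.35, adjusted p = 1.2e-05. For cs the wild type means were 9.89 and 9.88 (genotype difference -2.44 ± 0.33, adjusted p = 8.1e-05). ythdf2, which binds methylated messenger RNA, and ube2na, a ubiquitin-conjugating enzyme, fell in mutant by 1.63 and 1.81, with wild type changes of 0.44 and 0.09 that were not called. Ribosomal protein genes had 15 of 72 genotype differences below 0 (20.8% against 9.34% of all genes) and none above, and respiratory chain genes 15 of 74 below (20.3%) and 5 above. In the wild type contrast itself 6 ribosomal protein genes fell (8.33%, against 15.5% of all genes) and 1 rose. The retinal genes nr2e3 and sox2 fell in wild type as well, by 0.58 and 0.79, though the other sox2 probe sets were not called there. Because the hybridization and poly-A controls also differed between the RPE-attached groups of the 2 genotypes, array handling and genotype cannot be told apart in these differences.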

How the data were processed

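The deposited values are log2 signals made by the authors with RMA in the package affy under R 2.2.0, per the submitters' processing notes; no version of affy is given there. RNA was labelled by the manufacturer's protocol with repeated amplification, per the labels. Pools are labelled as biological replicates. The p-values rest on 1 spread between pools per probe set, shared by all 6 groups and moderated. This shared spread can understate the error of the noisier RPE-attached mutant group. The number of arrays limits the precision. The 115 control probe sets were left out. Of 15502 probe sets, 10795 had 1 symbol in the platform annotation, 135 several and 4572 none, and each gene was read from its brightest probe set (mean of 18 arrays). limma 3.58.1 under R 4.3.3 fitted a mean for each of 6 groups over 18 arrays (12 residual degrees of freedom), with empirical Bayes moderation. The contrasts were RPE-attached minus bare retina in each genotype and their difference. The fit was run on simulated data with independent arrays and 1 spread per probe set in all groups. That run could not show how the noisier RPE-attached mutant group or the correlated arrays affect the calls. Figures used Python 3.11.15 and matplotlib 3.10.9.

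The comparison, the 29 gene lists and the rule for named genes were chosen with earlier results of these data known. The rule took smarca4a, rpe65a, pmelb, dct and crestin, 12 genes higher and 12 lower by size of a called change (established symbol, no overlap between the groups), as many as 6 genes per list by p-value, and 8 genotype differences on either side of 0 by size; the text uses fewer. Lists are described by counts and medians, with no test of the list. Marker sums add linear signals. Same-numbered bare and RPE-attached mutant arrays correlated at 0.04, 0.01 and -0.20 in their deviations, so numbers were not taken as pairs in the mutant contrast. Same-numbered bare wild type and bare mutant arrays correlated at 0.37, 0.50 and 0.34, and bare and RPE-attached wild type arrays at 0.16, 0.05 and 0.12. Alternatives covered thresholds, filtering, scaling, moderation, weights, the groups and arrays used and the replicate block. Raw scans and promoter sequences were not used here.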

Additional observations from a re-analysis of the deposited data

Results flagged for a closer look

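The genes here were singled out because the change with attached RPE differed between mutant and wild type in the limma test of the difference (adjusted p under 0.05 over 15502 probe sets). Values are the mutant contrast minus the wild type contrast on the log2 scale. No sample was tested as an outlier, since groups held 3 arrays. Across all genes that test called 1101 above 0 and 821 below, so such calls are common in these arrays, and their causes were not tested.

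Among genes of the RPE, its lysosomes and pigment, the difference was -0.92 for rpe65a, 0.88 for ctsd, 0.54 for itgb5 and -0.89 for aqp1a.1. Other lysosomal enzymes gave 0.49 for glb1l, 0.92 for ctsba and 1.14 for fuca1.1. Neural crest, pigment and eye transcription factor genes gave 1.44 for crestin, 0.58 for sox10 and -1.3 for gch2, with 0.52 for bhlhe41, -1.26 for usf1 and -0.68 for nr2f1b.

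In vessels and leukocytes the values were 1.31 for plvapb, 0.86 for kdrl and 0.85 for aplnra, with -0.45 for lmo2 and -0.52 for mpx on the other side. Matrix, muscle and epithelial genes gave 0.96 for col2a1a, 1.43 for col1a1a and 1.99 for p3h4, together with 1.17 for mybpc2b, 0.99 for tpm4a and 0.95 for dsc2l. Signals and their receptors gave 2.08 for ccn2a, 2.73 for mdkb, 1.4 for notch2 and 0.77 for ccn1, and 0.57 for wnt2, 0.67 for shha, 0.62 for shhb and 0.62 for igfbp3. These are all above 0, while the angiogenic and secreted signals list had 7 of 82 above 0 (8.54% against 12.5% of all genes) and 5 below. For stress genes the difference was 1.31 for socs3b, 0.65 for hsp90aa1.2, 0.7 for sesn3 and -0.86 for xbp1. Cytoskeletal and metabolic genes with large values were 2.01 for scinla and 2.06 for bhmt.

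Lens crystallins, which among the mutant retina arrays were high in bare replicates 1 and 2, gave -2.43 for cryba4, -2.76 for crybb1 and -2.44 for crygmxl2. Retinal and glial genes gave -0.5 for nr2e3, -1.14 for gnb1b, -0.94 for glula and 0.69 for rlbp1a. In progenitor and cell cycle genes the values were -1.28 for her4.2, -0.69 for mycn and 0.74 for sox11b, with 0.59 for dnmt1 and 0.6 for aurka, and the SWI/SNF subunit gene gave 1.13 for phf10.

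Among the genes that were lowest in the mutant contrast, the values were -3.23 for hmgn1b, -2.44 for cs, -1.87 for elof1 and -1.41 for cst3. Further values were -1.49 for nfu1, -1.54 for nmt1a, -1.53 for rad23b and -1.37 for eps8l3b, and -1.27 for snapin, -0.58 for supt3h, -2.07 for ythdf2 and -1.9 for ube2na. Ribosomal and respiratory genes gave -0.8 for rps15a, -0.76 for rps27.1 and -1.11 for rpl29, with -0.97 for ndufab1a, -1.15 for uqcrh and 0.88 for ndufa8.

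Each value above is from the brightest probe set of its gene, and for some genes the difference was not called on another probe set. It was -0.05 there for rpe65a, -0.03 for gch2, 0.62 for col1a1a, -0.13 for dsc2l, 0.32 for bhmt and 0.36 for igfbp3. For mycn it was 0.00, for rad23b -0.23, for eps8l3b 0.11 and for elof1 -0.49. The other mpx probe sets gave -0.06, 0.39 and 0.23, those of ccn1 -0.20 and -0.16, and 1 probe set each of notch2, sox11b and ndufab1a gave -0.19, -0.36 and -0.46. Some calls also depended on the processing: the difference was not called under 11 alternatives for gch2, 9 for lmo2, 9 for supt3h, 8 for col2a1a, 8 for aurka and 8 for glb1l. It was lost under 5 for ccn1, 5 for nr2e3, 4 for bhlhe41, 4 for nr2f1b, 3 for dnmt1, 3 for hsp90aa1.2 and 3 for mycn, 2 each for sox10, shhb and wnt2, and 1 each for rpe65a, ctsba, cryba4 and crybb1.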

How the results depend on the processing

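In the mutant contrast 6240 probe sets were called (3708 higher, 2532 lower), 4533 in wild type (2361, 2172) and 3128 for the genotype difference (1793, 1335). At an adjusted p under 0.001 these became 2259 (1088, 1171), 1128 (489, 639) and 424 (235, 189). With a minimum of 2-fold they were 676 (256, 420), 208 (94, 114) and 545 (294, 251). With 1 probe set per gene, which tests fewer features, they were 3796 (2178, 1618), 2761 (1374, 1387) and 1979 (1131, 848). The mutant total was above the wild type total in the main fit, but the order reversed with the spread used. Mutant calls were 4641 against 5322 in wild type with the compared groups alone. With 1 weight per group they were 4763 against 5653, and with array weights 5198 against 5542. Leaving out 1 array at a time gave 4938 to 6299 in mutant (higher 2789 to 3762, lower 2149 to 2537), 3071 to 4019 in wild type (higher 1474 to 2045, lower 1597 to 1974) and 2302 to 3454 for the difference (higher 1309 to 1975, lower 993 to 1479). Wild type higher calls were 1474 without bare replicate 1 and 1567 without RPE-attached replicate 3. Without mutant bare replicates 1 and 2, an alternative chosen after seeing the data, the mutant contrast called 3501 (1804 higher), and without the wild type RPE-attached arrays, also added, it called 3527 higher and 2437 lower. The replicate block gave 6950 calls in mutant over all arrays and 4307 over the compared groups alone (2306 higher). For the wild type contrast it gave 5314 and 5645, and for the difference 3908 and 3050. In mutant the number was shared by bare and RPE-attached arrays in name only. In wild type same-numbered bare and RPE-attached arrays correlated at 0.16, 0.05 and 0.12 in their deviations, and other pairs at -0.15 to 0.03. Bare arrays of both genotypes deviated together by number. Among single genes, the direction changed with the probe set for notch2 (-0.25), eps8l3b (0.30), rad23b (0.12), spi1b (-0.020), actc1b (-0.073), mycn (0.31), kif4 (0.15 and 0.39), sox11b (-0.99) and ccn1 (-0.15 and -0.10), and the cause was not tested. Without mutant bare replicates 1 and 2, which leaves 1 bare array, the median change over all probe sets was 0.12. List medians in that setting were 0.26 for RPE function, 0.24 for melanin, 0.38 for neural crest and 0.36 for endothelium. They were 0.46 for mesenchyme, 0.33 for muscle and 0.31 for epidermis, and -0.16 for ganglion cells and -0.02 for eye pigment transcription factors. Dim genes are measured least well, and no fold is given under a log2 signal of 5.15.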
